A study of Homo sapiens with 2 samples.

Results

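The kinetochore is the protein assembly that forms on the centromere of each chromosome in mitosis and binds spindle microtubules, and the spindle checkpoint holds the cell before anaphase until every kinetochore is attached. The genes described here are 50 genes of this machinery, from the centromeric histone to the enzymes that release sister chromatids. A gene was a member if the gene name of at least 1 non-control probe of the array was one of a fixed list of kinetochore, checkpoint and mitotic kinase symbols, a rule that sets no threshold on the measured values. The list itself was drawn up with earlier results of these data known. All 50 symbols were on the array, with 68 probes in 122 spots, out of 43317 gene names and 58201 probes in all.

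Both samples were Ca9-22, a cell line of oral squamous cell carcinoma (OSCC). In the control vector group the cells had been infected with a lentivirus without an insert, and in the DLEU1 vector group with a lentivirus carrying the full-length cDNA of the long noncoding RNA DLEU1, amplified from another OSCC line, KON. Both infected cultures had been selected with blasticidin, with no cloning step described and no unmodified culture beside them. Cy3-labelled total RNA of each culture was put on an Agilent 1-colour array of its own. With 1 array in each group there was no replicate of either vector, so no test or p-value was possible and every difference below compares these 2 cultures.

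Many of these genes are transcribed in a narrow window, from late S phase to mitosis. A repressor complex is known to hold their promoters silent in resting cells, and MYB-like and forkhead factors to activate them in dividing cells. A short DNA element, the cell cycle genes homology region (CHR), takes part in both steps, often beside a CCAAT box bound by NF-Y. RNA of such genes is widely used as a marker of dividing cells.

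To show the sequences in question, the 120 bases before the transcription start are given for each member with a single start in the RefSeq promoter table (GRCh38.p14) that holds the CHR letters TTTGAA whole in this stretch. The letters searched were TTTGAA and TTTAAA for a CHR and CCAAT for an NF-Y box, on both strands, with TTGGCGC or TTCCCGC or TTCGCGC or TTGCCGC for an E2F site. Capitals mark every match. A match is a run of letters, not a site shown to be bound.
CENPA (chr2:26785936-26786055, plus strand): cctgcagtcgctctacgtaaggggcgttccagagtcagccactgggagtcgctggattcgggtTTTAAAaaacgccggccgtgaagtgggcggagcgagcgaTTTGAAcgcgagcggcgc
HJURP (chr2:233854536-233854655, minus strand): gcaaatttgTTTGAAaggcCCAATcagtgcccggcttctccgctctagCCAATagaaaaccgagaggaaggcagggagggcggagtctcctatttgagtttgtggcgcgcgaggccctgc
BUB1B (chr15:40160949-40161068, plus strand): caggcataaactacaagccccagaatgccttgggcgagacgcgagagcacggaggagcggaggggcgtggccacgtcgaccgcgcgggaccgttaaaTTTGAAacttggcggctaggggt
INCENP (chr11:62123891-62124010, plus strand): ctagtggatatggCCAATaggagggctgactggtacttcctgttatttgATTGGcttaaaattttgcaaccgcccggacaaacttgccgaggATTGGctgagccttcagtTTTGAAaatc
CDCA8 (chr1:37692396-37692515, plus strand): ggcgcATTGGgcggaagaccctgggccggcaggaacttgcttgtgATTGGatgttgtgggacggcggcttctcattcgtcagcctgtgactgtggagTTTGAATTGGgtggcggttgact
PLK1 (chr16:23678769-23678888, plus strand): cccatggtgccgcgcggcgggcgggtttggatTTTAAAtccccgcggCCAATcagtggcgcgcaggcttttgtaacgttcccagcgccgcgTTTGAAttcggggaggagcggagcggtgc
CDC20 (chr1:43358861-43358980, plus strand): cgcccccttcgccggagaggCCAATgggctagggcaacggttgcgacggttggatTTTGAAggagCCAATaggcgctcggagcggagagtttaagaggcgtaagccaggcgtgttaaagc
ESPL1 (chr12:53268179-53268298, plus strand): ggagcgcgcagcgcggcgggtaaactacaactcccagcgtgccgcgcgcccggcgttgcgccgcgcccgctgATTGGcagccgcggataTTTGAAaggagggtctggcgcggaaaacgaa

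Counting bases back from -1 just before the start, the TTTGAA of PLK1 began at -29, that of ESPL1 at -31, those of BUB1B and CDCA8 at -23 and that of CDC20 at -65. In CDCA8 the CHR letters ran into a CCAAT box on the other strand (TTTGAATTGG), so the 2 matches shared letters. HJURP, INCENP, CDCA8, PLK1, CDC20 and ESPL1 also had CCAAT letters in the stretch, and CENPA and BUB1B had none there. The same stretch is given for the 4 members that differed by less than 2-fold between the vectors and had a single start in the table.
NSL1 (chr1:212791778-212791897, minus strand): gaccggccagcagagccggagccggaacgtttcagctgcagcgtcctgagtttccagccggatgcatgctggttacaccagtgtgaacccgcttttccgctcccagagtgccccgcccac
PMF1 (chr1:156212887-156213006, plus strand): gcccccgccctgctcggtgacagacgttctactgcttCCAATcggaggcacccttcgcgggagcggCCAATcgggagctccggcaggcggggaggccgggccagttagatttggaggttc
SKA2 (chr17:59155187-59155306, minus strand): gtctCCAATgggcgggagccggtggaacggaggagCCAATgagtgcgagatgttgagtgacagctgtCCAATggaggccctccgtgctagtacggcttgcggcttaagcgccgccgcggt
MAD1L1 (chr7:2232946-2233065, minus strand): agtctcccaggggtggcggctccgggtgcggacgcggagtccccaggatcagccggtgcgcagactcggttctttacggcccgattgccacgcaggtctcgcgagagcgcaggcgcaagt

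None of these stretches held TTTGAA or TTTAAA. SKA2 had CCAAT letters at 3 places and PMF1 at 2, while NSL1 and MAD1L1 had no capitals at all. The first stretches printed had been chosen for holding TTTGAA, so the sets cannot be compared for it. OIP5, CENPK, CENPQ, CENPU, CENPW, SPC24, DSN1, ZWILCH, BUB1, SGOL1 and NEK2 were each more than 4-fold lower with the DLEU1 vector. Each also had a single start and no TTTGAA or TTTAAA from 250 bases before it to 50 after. DSN1 had none of the searched letters.

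RNA of the members was measured by probes of 60 bases, most of them placed on 1 unbroken run of 60 bases in the genome. Some spanned an intron by their positions on hg19, the build of the deposited files, and so could pair over their full length only with spliced RNA. Of the probes that gave a gene its value, 5 such probes are shown, for a checkpoint kinase, an inner centromere kinase, a spindle kinase, separase and, for contrast, a Ska subunit.
BUB1 probe (chr2:111395699-111397340, minus strand): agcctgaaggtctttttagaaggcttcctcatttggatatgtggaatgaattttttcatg
AURKB probe (chr17:8110655-8110917, minus strand): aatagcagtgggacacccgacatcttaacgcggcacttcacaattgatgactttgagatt
PLK1 probe (chr16:23700970-23701212, plus strand): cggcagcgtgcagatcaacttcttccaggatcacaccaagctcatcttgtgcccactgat
ESPL1 probe (chr12:53686748-53687109, plus strand): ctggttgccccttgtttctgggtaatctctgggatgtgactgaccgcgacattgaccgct
SKA2 probe (chr17:57196809-57208653, minus strand): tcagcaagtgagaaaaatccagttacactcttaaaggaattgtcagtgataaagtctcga

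The first 4 of these probes were between 5.32-fold and 8.45-fold dimmer with the DLEU1 vector, and the SKA2 probe 1.74-fold, on the scaled signal explained next.

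Processed intensity, in the arbitrary units of the scanner software after background subtraction, was compared between the arrays. A difference is the log2 signal with the DLEU1 vector less that with the control vector, each after subtraction of the array's 75th percentile. A gene's value was that of its brightest probe detected (well above background) on both arrays, by the mean log2 signal of the 2 arrays. Of the 50 members, 48 were detected on both arrays and 2, CENPI and CENPL, on the control vector array only. Of the 48, 42 (87.5%) were at least 2-fold lower with the DLEU1 vector, where 9.78% of the 20246 gene names detected on both arrays were. At least 4-fold lower were 38 members (79.2%), against 1.92% of all gene names. No member was at least 2-fold higher (0 of 48), against 9.18% of all gene names. All 48 differences were negative, from -3.31 for SPC25 to -0.11 for BUB3, although BUB3 turned to 0.08 with quantile normalization and 0.11 with loess. The median was -2.60, or 6.08-fold lower, with quartiles of -2.82 and -2.14. Over all gene names the median was -0.07, with quartiles of -0.52 and 0.41. The arrays measured RNA of whole cultures, in which fewer dividing cells and less RNA per dividing cell cannot be told apart.

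**Figure D1:**
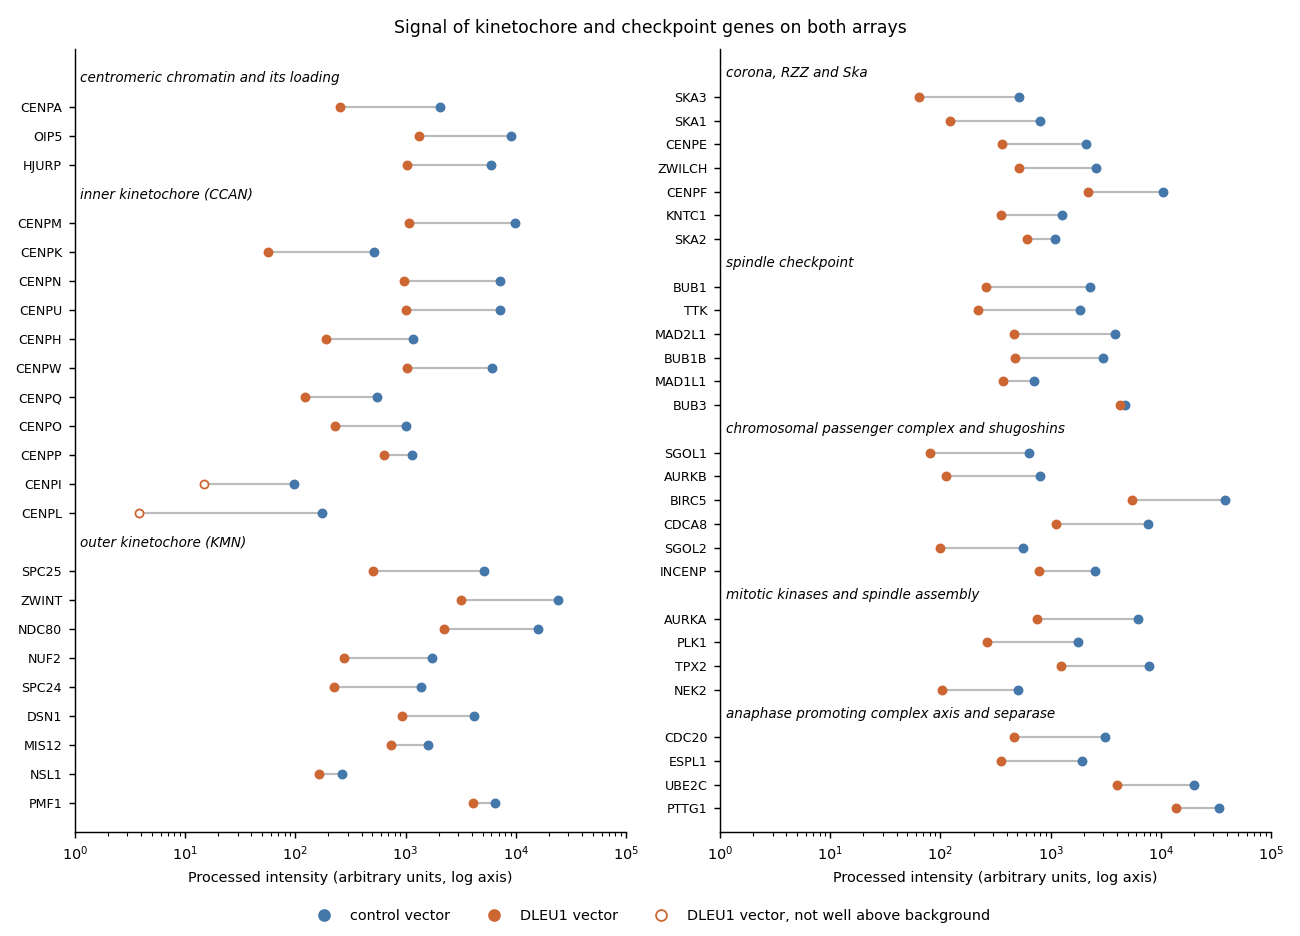
Processed intensity (arbitrary units, log axis) of the 50 members on the control vector array (blue) and the DLEU1 vector array (orange), grouped by role, with 1 point per array and a grey line joining the arrays; open points were not well above background. The orange point lies left of the blue one for every member, and the closest pairs are BUB3, PMF1, NSL1, CENPP and SKA2.

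**Figure D2:**
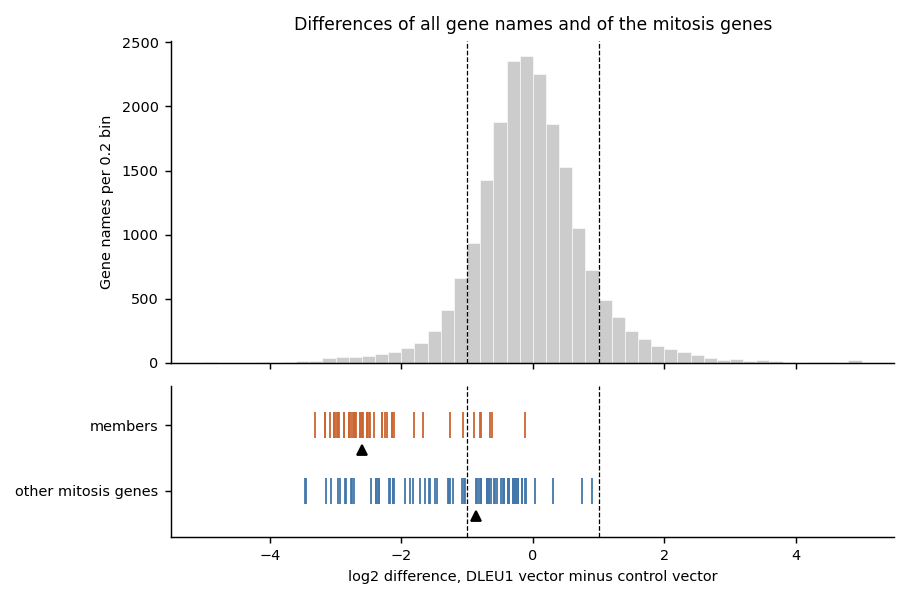
Above, the number of gene names detected on both arrays per bin of 0.2 in the log2 difference, DLEU1 vector minus control vector (20246 gene names, values beyond 5 in the outermost bins). Below, 1 tick per gene for the 48 members and 78 other mitosis genes, with triangles at their medians of -2.60 and -0.86 and dashed lines at 2-fold.

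The spread behind these values was technical only. Over 282 detected probes printed in several spots, the SD of the log2 difference between spots was 0.0800, and over 4674 gene names with several detected probes the SD between probes of a gene was 0.470. Among the members, 6 probes were printed in 10 spots each. BIRC5 (survivin, a subunit of the chromosomal passenger complex) gave 37913 ± 1438 in control cells and 5458 ± 164 with DLEU1 (SD, n = 10 spots each). For the motor protein CENPE the values were 2109 ± 87.4 and 364 ± 12.5 (SD, n = 10 spots each). CENPH, of the inner kinetochore, gave 1178 ± 80.6 and 189 ± 8.78 (SD, n = 10 spots each). In each of these the dimmest control vector spot was brighter than the brightest DLEU1 vector spot. With a spot SD of 0.0800 a small difference is enough for this, and its share among all replicated probes was not counted.

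INCENP, the scaffold of the passenger complex, gave 2548 ± 61.3 and 782 ± 40.1 (SD, n = 10 spots each). KNTC1 gave 1279 ± 40.2 (SD, n = 9 spots) and 357 ± 31.1 (SD, n = 10 spots). CENPQ gave 552 ± 30.3 and 122 ± 12.9 (SD, n = 9 spots each). Spots of the 2 arrays did not overlap here either, with the same limit. Paired by spot, the difference was -1.67 ± 0.07 for INCENP (SD, n = 10 spots), -1.81 ± 0.13 for KNTC1 (SD, n = 9 spots) and -2.76 ± 0.05 for BIRC5 (SD, n = 10 spots). INCENP and KNTC1 thus had smaller differences than BIRC5 by more than the spread between spots. That spread leaves out the variation between probes of a gene (SD 0.470), and each of these genes had 1 probe. Spots of 1 array share the culture and the RNA, so the spot SDs also leave out the variation between cultures.

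**Figure D3:**
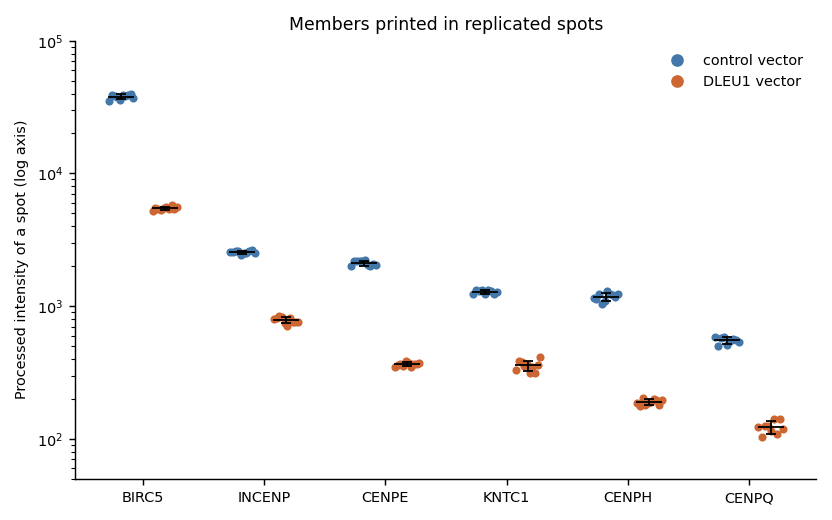
Processed intensity (log axis) of every unflagged spot of the 6 members printed in 10 spots, for the control vector (blue) and the DLEU1 vector (orange); black bars are the mean and SD over 9 or 10 spots. The spots of the 2 arrays are separated for all 6, from 37913 against 5458 for BIRC5 to 552 against 122 for CENPQ. How often this held among all replicated probes was not counted.

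The genes that mark the centromere itself were lower. CENPA, the histone H3 variant that defines the centromere, went from an intensity of 2071 in control cells to 255 with DLEU1 (-2.98, or 7.91-fold lower). Its chaperone HJURP, which places it on DNA, went from 6017 to 1022 (-2.52). OIP5, a subunit of the Mis18 complex that licenses this loading, went from 9014 to 1328 (-2.72). All 3 were more than 4-fold lower.

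On this chromatin sits the constitutive centromere-associated network (CCAN), the inner kinetochore. Of its 11 members here, 9 were detected on both arrays and 8 of these were at least 4-fold lower. Their median was -2.60. CENPM and CENPK, which form a subcomplex with CENPH and CENPI, were the lowest of these 9, CENPM with 9787 and 1064 (-3.16) and CENPK with 516 and 56.4 (-3.16). CENPN, which reads the CENPA nucleosome, went from 7192 to 959 (-2.87), and CENPW, of the histone-fold subcomplex, from 6058 to 1026 (-2.52). Of the CENP-O subcomplex, CENPU, a docking site for PLK1, differed by -2.79, CENPQ by -2.14 and CENPO by -2.11, while CENPP went from 1139 to 643 (-0.79) by its brightest probe and from 1451 to 376 (-1.91) by its other probe. Brightest was judged by the mean log2 signal of both arrays, and on the control vector array alone the other CENPP probe was the brighter one. The mean of the CENPP probes was -1.35, past 2-fold.

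For CENPI and CENPL the DLEU1 vector signal was below detection, and the fold was taken against the lowest detected signal or the probe's own, whichever was higher. The 3 probes of CENPI read 96.9, 95.7 and 72.5 in control cells and 14.8, 10.7 and 13.1 with DLEU1, which made CENPI at least 6.37-fold, 6.51-fold and 4.94-fold lower. CENPL went from 176 to 3.81, at least 12-fold lower. Its only spot lay in a strip of the DLEU1 vector array, columns 36 to 40 and rows 1 to 110, where 44.9% of the spots lit on the control vector array were at least 2-fold dimmer, against 12.8% of those outside it, so CENPL has no value without the strip. A spot of CENPQ in the strip had been marked as an outlier and was already dropped. With CENPI and CENPL at their bounds the median over the members was -2.62.

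The outer kinetochore consists of the Ndc80 complex, which grips microtubules, the Mis12 complex, which joins it to the inner kinetochore, and the scaffold KNL1. The 4 subunits of the Ndc80 complex moved close together. NDC80 went from 15986 to 2235 (-2.80), NUF2 from 1743 to 275 (-2.63), SPC24 from 1393 to 222 (-2.61) and SPC25 from 5179 to 508 (-3.31, or 9.93-fold). They lay within 0.70 of each other on the log2 scale, and SPC25 had the lowest difference of the 48 members detected on both arrays.

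The 4 subunits of the Mis12 complex differed less and less evenly. DSN1 went from 4211 to 928 (-2.14), and MIS12 from 1591 to 739 (-1.07). NSL1 went from 263 to 163 (-0.65) and PMF1 from 6452 to 4079 (-0.62), both short of 2-fold. The median was -0.86 for the Mis12 complex and -2.71 for the Ndc80 complex, and the largest Mis12 difference was smaller than the smallest Ndc80 difference. The distance between DSN1 and SPC24 was 0.46, about the SD between probes of a gene, whereas the other Mis12 subunits were further away. ZWINT, which binds KNL1 and recruits the checkpoint complex below, went from 24065 to 3217 (-2.87), and its other probe gave -3.36. KNL1 itself is not a member but completes the outer kinetochore, and under its older name CASC5 it went from 1863 to 275 (-2.72).

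The fibrous corona, the RZZ complex and the Ska complex assemble on the outer kinetochore before and during attachment. CENPE, a plus-end-directed kinesin, differed by -2.50 and CENPF, a large coiled-coil protein of the corona, went from 10469 to 2187 (-2.22). ZWILCH and KNTC1, which form the RZZ complex with ZW10, went from 2569 to 512 (-2.29) and from 1278 to 356 (-1.81). ZW10, chosen after its value was seen to complete the complex, read 1603 and 743 (-1.07), the smallest difference of the 3.

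Of the Ska complex, which keeps kinetochores on depolymerising microtubules, SKA1 went from 808 to 121 (-2.70) and SKA3 from 519 to 64.5 (-2.97). SKA2 went from 1086 to 607 (-0.80), and its other probe read 611 and 574 (-0.05). Within this complex the differences thus spanned 2.17 on the log2 scale, several times the SD between probes of a gene.

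Of the 6 spindle checkpoint members, 4 were more than 4-fold lower and 2 were lower by less than 2-fold. BUB1, the kinase that opens checkpoint signalling at the kinetochore, went from 2254 to 260 (-3.08, or 8.45-fold). TTK (MPS1), which phosphorylates the KNL1 scaffold, went from 1832 to 219 (-3.03). MAD2L1, the protein that is converted to inhibit CDC20, went from 3827 to 462 (-3.01), and BUB1B (BUBR1), its partner in the inhibitory complex, from 3013 to 472 (-2.64).

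BUB3, the adaptor that carries BUB1 and BUB1B to the kinetochore, read 4693 and 4227 (-0.11). Its other probe, at chr10:124917262-124917321 (hg19, plus strand) and designed to another transcript, read 3605 and 1675 (-1.07), so the probes of BUB3 did not give the same answer. MAD1L1, the receptor of MAD2L1 at the kinetochore, went from 704 to 367 (-0.90). It was the closest to the 2-fold threshold of the members short of it, and MIS12 (-1.07) the closest of those past it.

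The chromosomal passenger complex corrects wrong attachments from the inner centromere, and the shugoshins protect cohesin there. AURKB, the kinase of the complex, went from 797 to 112 (-2.80), and CDCA8 (borealin) from 7634 to 1123 (-2.73), both close to the -2.76 of BIRC5. INCENP, at -1.67, stood 1.13 away from AURKB. SGOL1 (shugoshin 1) went from 636 to 80.3 (-2.95) and its other probe from 408 to 31.7 (-3.65), and SGOL2 went from 566 to 99.2 (-2.48). A further SGOL2 probe was detected on neither array.

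The mitotic kinases and their spindle partner were all lower. AURKA, the kinase of the spindle poles, went from 6266 to 752 (-3.02) and TPX2, its activator on microtubules, from 7747 to 1254 (-2.59). PLK1, which acts at poles, kinetochores and midbody, went from 1755 to 266 (-2.69), and NEK2, which parts the centrosomes, from 503 to 103 (-2.25). Other probes of PLK1 and NEK2 gave -2.91 and -2.59.

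The last group ends the checkpoint. CDC20, the activator of the anaphase promoting complex and the target of the checkpoint, went from 3099 to 460 (-2.71). UBE2C, the ubiquitin-conjugating enzyme that works with this complex, went from 20052 to 3998 (-2.29). ESPL1 (separase), which cuts cohesin, went from 1940 to 356 (-2.41). PTTG1 (securin), the inhibitor of separase, had the smallest difference of the group, from 33585 to 13607 (-1.27, or 2.40-fold). PTTG1 has near-identical copies, and the probes named for PTTG2 (9924 and 3747) and PTTG3P (686 and 234) differed by -1.37 and -1.52. Since these probes could share RNA, the value of PTTG1 is uncertain.

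**Figure D4:**
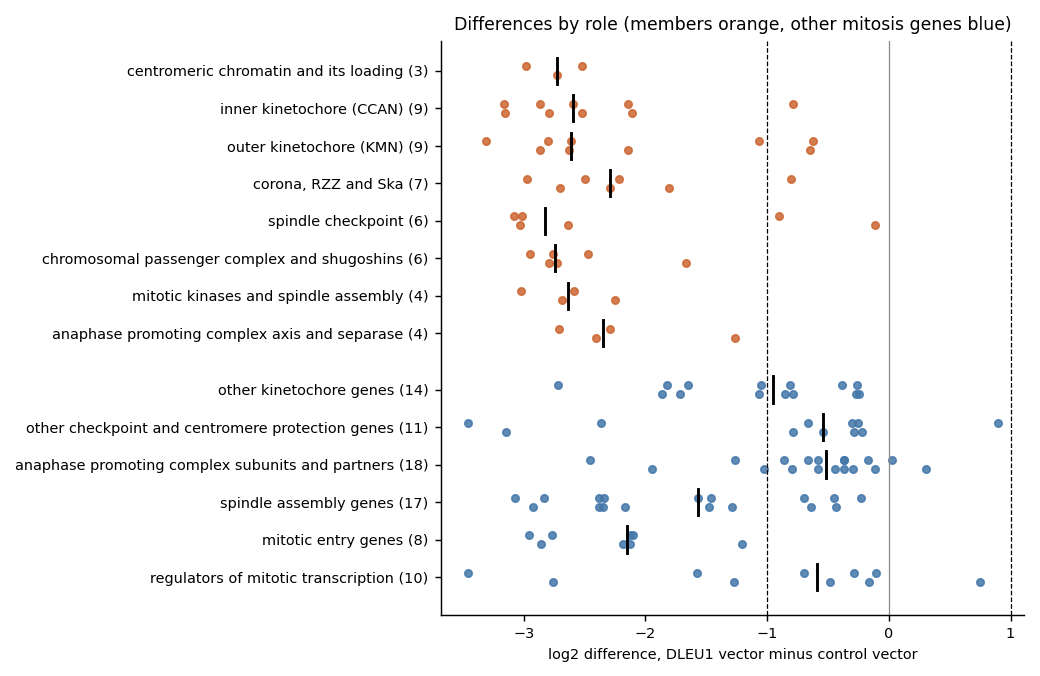
Log2 difference (DLEU1 vector minus control vector) of each gene detected on both arrays, 1 point per gene, with members by role in orange and other mitosis genes in blue; black bars are group medians, the number of genes stands in parentheses and dashed lines mark 2-fold. Member groups have medians between -2.83 and -2.29, and 6 members lie right of the 2-fold line at -1.

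Seen by role, the medians were close to each other, from -2.83 for the spindle checkpoint to -2.29 for the corona, RZZ and Ska members. The 6 members that were lower by less than 2-fold came from 4 of the 8 groups, with 2 in the outer kinetochore (NSL1 and PMF1), 2 in the checkpoint (BUB3 and MAD1L1) and 1 each in the inner kinetochore (CENPP) and the Ska complex (SKA2). The other 4 groups had all their members at least 2-fold lower.

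Several probes of a gene gave a second reading of the same RNA. Of the 68 member probes, 60 were detected on both arrays and 52 of these were at least 2-fold lower, 7 were detected on the control vector array only and 1 on neither. Shares over all probes were not counted. By gene name, 9.78% of those detected on both arrays were at least 2-fold lower. Of all 43317 names, 1065 were detected on the control vector array only and 1242 on the DLEU1 vector array only. Of the 12 members with more than 1 probe detected on both arrays, all 12 had probes of the same sign and 10 had them on the same side of 2-fold. The median distance between the highest and the lowest probe of a member was 0.41. The exceptions were BUB3, given above, and CENPP, whose probes were designed to the same transcript. The CENPP probe at chr9:95375371-95375430 (hg19, plus strand) gave the -1.91 above, and the brightest one, at chr9:95377376-95377435, gave the -0.79, which made 1.12 the largest distance among these members.

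**Figure D5:**
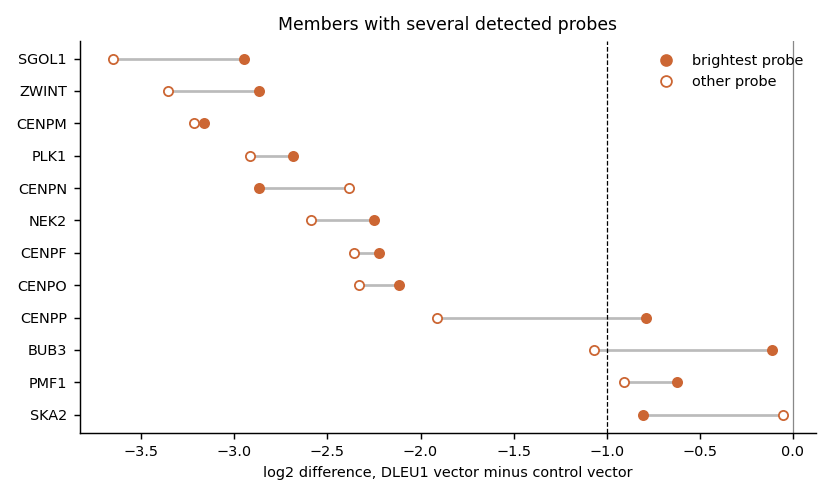
Log2 difference (DLEU1 vector minus control vector) of every probe detected on both arrays for the 12 members with several such probes; filled points are the brightest probe, which gave the gene its value, open points the other probes, and the dashed line marks 2-fold. Only CENPP and BUB3 have probes on both sides of the line.

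Other genes of mitosis, from a list of 81 with a probe, gave a less even picture. Of these, 78 were detected on both arrays, CENPV on the control vector array only (at least 7.75-fold lower) and USP44 and AURKC on neither. Of the 78, 38 were at least 2-fold lower, where 9.78% of all gene names were. At least 4-fold lower were 22, against 1.92% of all gene names, and 0 were at least 2-fold higher, against 9.18%. Their median was -0.86, against -2.60 for the members.

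The 8 genes of mitotic entry, such as the kinase CDK1 and its cyclins, were all at least 2-fold lower (median -2.15). Of 17 spindle assembly genes 12 were (median -1.57), and of 14 other kinetochore genes 7 (median -0.95). By contrast 4 of 18 subunits and partners of the anaphase promoting complex were at least 2-fold lower (median -0.51), where 9.78% of all gene names were. CDC20 and UBE2C, which act on this complex, were among the lowered members. Of 11 other checkpoint and centromere protection genes 3 were lower (median -0.54), and of 10 regulators of mitotic transcription 4 (median -0.59).

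The lowest of these genes were GSG2 (haspin, the kinase that marks histone H3 for the passenger complex), from 207 to 18.3 (-3.46), and MYBL2 (B-MYB, an activator of mitotic genes), from 2081 to 185 (-3.46). TRIP13, which takes checkpoint complexes apart, went from 5166 to 569 (-3.15). The microtubule-binding TACC3 differed by -3.07, the CDK1 inhibitor PKMYT1 by -2.96 and the spindle protein SPAG5 by -2.93. At the other end, PPP2R5A, a regulatory subunit of the phosphatase PP2A, read 463 and 839 (0.90). NFYA, a subunit of NF-Y, read 281 and 460 (0.75) by its brightest probe, while its other probe differed by 0.24. ANAPC16 (0.31), FZR1 (0.03), LIN37 (-0.10) and UBE2D1 (-0.12) lay nearer to 0 and took either sign among the scalings tried.

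The promoter letters were then counted over all RefSeq entries of the members. The table held 40 of the 50 members (SGOL1 and SGOL2 under the names SGO1 and SGO2) with 47 starts, each covered from 250 bases before to 50 after. The members not in it were CENPH, CENPL, CENPM, KNTC1, BUB3, TTK, BIRC5, AURKA, TPX2 and UBE2C. TTTGAA or TTTAAA stood in 24 of 47 stretches (51.1%), against 24.0% of all 35116 promoters of the table and 20.2% of the 22199 of protein-coding genes. TTTGAA alone stood in 40.4%, against 15.2% of all promoters, and TTTAAA in 17.0%, against 12.2%. CCAAT stood in 72.3%, against 34.6%, and the E2F letters in 31.9%, against 13% of all promoters and 16.1% of those of protein-coding genes.

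Both CHR and CCAAT letters stood in 36.2% of the member stretches and in 9.27% of all promoters. Of the 107 stretches of the other mitosis genes, 34.6% held CHR letters, 48.6% CCAAT and 35.5% E2F letters, the last a higher share than in the members. Among members at least 2-fold lower, 24 of 39 stretches held CHR letters, 31 CCAAT and 14 E2F letters. Among those lower by less than 2-fold it was 0, 3 and 1 of 7, from 5 genes, which include the 4 stretches printed above. CENPI, which had a bound only and none of these letters, was in neither count. Starts of 1 gene share sequence, and these counts are descriptions without a test.

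The vector and the cell type were checked on the same arrays. The brightest DLEU1 probe went from 2178 to 14156 (6.67-fold higher). The other 2 DLEU1 probes, designed to another transcript, were dimmer and less different, with 55.9 and 98.4 (1.81-fold) and with 33.4 and 47.4 (1.46-fold). The share of probes detected was 47.6% for the control vector and 48.1% for the DLEU1 vector. All 8 markers of squamous epithelium (KRT5, KRT14, KRT17, TP63, CDH1, DSG3, EGFR and EPCAM) were detected on both arrays, and 5 of them were at least 2-fold higher with the DLEU1 vector, such as KRT14 with 5698 and 39953. TP63 (0.96) and EGFR (0.53, but 1.16 by another probe) were higher by less than 2-fold, and EPCAM was lower, with 18084 and 10238 (-0.78). Their summed intensity went from 69028 to 225741. Of 5 fibroblast markers, COL1A1 read 337 and 5217 and LUM was detected with the DLEU1 vector only, PDGFRB was dim, and COL1A2 and COL3A1 were detected on neither array, with summed intensities of 369 and 5275. Of 4 endothelial markers, VWF read 48.1 and 609 (3.70) by its brightest probe, while its other detected probe differed by -0.07. CDH5 was dim, and PECAM1 and KDR were detected on neither array, with sums over the 4 markers of 111 and 652. The 4 leukocyte markers with a probe summed to 302 and 247, with PTPRC at 72.7 and 96.9 and CD3E detected on neither array. The part of these markers in the members' differences was not tested.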

How the data were processed

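RNA of Ca9-22 cells with a control vector or a DLEU1 vector was measured on 1 Agilent array each, with 62976 spots per array. Per the file headers and labels, Agilent Feature Extraction 10.7 produced the deposited processed intensity of each spot. It subtracted background, detrended the signal and gave dim spots a surrogate value. Neither array was normalized to the other. The authors' series values held the same intensity, rounded (within 0.497%). Here, spots marked as outliers were dropped (84 and 103), the log2 signal was averaged over the spots of a probe, and the 75th percentile of the array was subtracted (7.92 and 7.88). This scaling sets the overall level of the 2 arrays equal, so differences are relative to it. Differences of 2-fold were called without a test, since each group had 1 array, and precision is limited by this number. All 50 members, DLEU1, the markers and the 6 lowest and 6 highest other mitosis genes were named by rule; CASC5, ZW10, PTTG2, PTTG3P, CENPV, USP44, AURKC and CDK1 were named outside it, after their values were seen. Members and lists were chosen with earlier results of these data known. Alternatives covered scaling, background correction (normexp, limma 3.58.1), filters on dim probes, the probe of a gene and the threshold. The steps were tested on simulated data. Python 3.11.15, pandas 2.3.3 and statsmodels 0.14.6 were used.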

Additional observations from a re-analysis of the deposited data

How the results depend on the processing

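The count of lower members stayed between 38 and 47 in all 17 alternatives. The lowest count was 38 of 44, with a signal of at least 100, where 10.2% of all gene names were at least 2-fold lower. The highest was 47 of 48, with spike-in scaling, where 24.1% of all gene names were. A 1.5-fold threshold also gave 47, against 22.0% of all gene names, and a 3-fold threshold 40, against 3.31%. The count higher was 0 in each alternative, where 9.18% of all gene names were higher in the main setting. Leaving out saturated probes tested nothing, as none was saturated. For the other mitosis genes the count ran from 27 (3-fold threshold) to 52 (spike-in scaling). The median of the members moved by more than the spot SD with median scaling (-2.72), the percentile over detected probes (-2.49), loess (-2.51), normexp (-2.31) and spike-in scaling (-3.07), and that of the other mitosis genes with median scaling (-0.97), the percentile over detected probes (-0.75), loess (-0.76) and spike-in scaling (-1.32). The median of all gene names moved too, from -0.07 to -0.18, 0.04, 0.01 and -0.53 with median scaling, detected probes, loess and spike-ins. The median of the members less that of all gene names was -2.53 in the main setting, which scaling by a constant cannot change, and ran from -2.66 (no filter on dim probes) to -2.28 (normexp) over the alternatives. Higher calls were 48.4% of all calls in the main setting and 15.9% with spike-in scaling, where 24.1% of all gene names were at least 2-fold lower. Of 716 values of single members, 2 changed sign, both of BUB3 (0.08 with quantiles and 0.11 with loess, from -0.11), and 11 values of 6 members crossed 2-fold: MIS12 fell short with detected probes (-0.96), quantiles (-0.97), loess (-0.96) and normexp (-0.97), MAD1L1 passed with median scaling (-1.01) and spike-ins (-1.36), CENPP with spike-ins (-1.25) and the mean of probes (-1.35), and NSL1 (-1.11), PMF1 (-1.09) and SKA2 (-1.27) with spike-ins. Leaving out the strip, chosen after seeing the data, kept 42 members lower with a median of -2.61. No paired analysis was possible because each vector had 1 array.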
